A study of Homo sapiens with 12 samples.

Results

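Expression of 8 genes of the Hedgehog pathway was followed in cells of SW1736, a long-established anaplastic thyroid cancer line, over 4 combinations of vector and hormone. The 8 genes were taken by name: the ligand SHH, the receptors PTCH1, SMO and HHIP, the cytoplasmic inhibitor SUFU and the transcription factors GLI1, GLI2 and GLI3. They were chosen with earlier results of these data known. They are 8 of the 56832 gene symbols in the count files, and all 8 had a row there. Of these, 6 passed the filter on low counts and were tested, and SMO and HHIP were not.

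The cells carried a pCDH vector, either empty (EV) or with thyroid hormone receptor beta (TRB, gene THRB), and expressed it stably. All of them were first starved of hormone for 24 hours in medium with charcoal-stripped serum and without phenol red. They then received 10 nM T3, the active thyroid hormone, or NaOH as vehicle for 24 hours. Each of the 4 groups (EV vehicle, EV T3, TRB vehicle and TRB T3) had 3 RNA-seq libraries, 12 in all. All libraries come from 1 cell line, and the labels do not say that those of a group came from separate cultures, so p-values measure only the spread between these libraries. Receptor is supplied by the vector, and counts per gene do not separate its transcript from that of the cells' own THRB.

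Hedgehog ligands bind the receptor PTCH1, and this releases Smoothened (SMO) from inhibition at the primary cilium. Active Smoothened frees the GLI factors from SUFU, which otherwise holds them in the cytoplasm and favours their processing to repressors. GLI2 is mainly an activator and GLI3 mainly a repressor, while GLI1 is an activator that is itself a target of the pathway, as are PTCH1 and HHIP, a decoy that binds the ligand at the cell surface. Hedgehog signalling is active in many carcinomas, thyroid cancers among them.

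Promoter windows of the ligand and of PTCH1 are shown because SHH fell under T3 with the receptor and PTCH1, a standard readout of GLI activity, did not pass the test in any comparison. Windows of 250 bases upstream of a start were found in RefSeq (GRCh38.p14) for 6 of the 8 genes, 11 windows in all. GLI1 and GLI3 had no window there, so their promoters were not searched for any motif. The GLI consensus GACCACCCA, on either strand, was in 70 of all 35116 windows of that length, or 0.199%. Among the 11 windows it was found only in a PTCH1 window on the minus strand, at chr9:95509267-95509516. There it lies 172 to 164 bases before the start and is shown in capitals. The SHH window, on the minus strand at chr7:155812464-155812713, has no match and no capitals. Neither window overlaps an annotated exon.
PTCH1: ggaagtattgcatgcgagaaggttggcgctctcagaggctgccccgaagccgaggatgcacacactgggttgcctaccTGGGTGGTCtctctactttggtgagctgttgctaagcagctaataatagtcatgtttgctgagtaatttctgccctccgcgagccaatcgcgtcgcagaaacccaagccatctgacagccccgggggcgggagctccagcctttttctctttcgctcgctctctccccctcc
SHH: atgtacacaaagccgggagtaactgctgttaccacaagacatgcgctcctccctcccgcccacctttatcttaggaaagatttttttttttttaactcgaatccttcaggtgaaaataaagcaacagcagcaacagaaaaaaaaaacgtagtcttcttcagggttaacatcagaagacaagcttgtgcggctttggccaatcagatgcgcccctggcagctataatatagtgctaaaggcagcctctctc
The half-site AGGTCA, to which thyroid hormone receptors and other nuclear receptors bind, was in 12.1% of all windows, counting both strands. Its direct repeat with a spacer of 4, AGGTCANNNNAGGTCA, was in 5 windows, or 0.0142%, and every match to it is also a match to the half-site. None of the 11 windows held either motif, which says only that these letters are not in these windows.

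Counts assigned to genes ranged from 3819306 to 13086717 per library. Levels are in CPM, a gene's count divided by the size of its library in megareads, with TMM as edgeR's correction for library composition. THRB was 14.6 ± 1.39 CPM (SD, n = 3) in EV vehicle, 14.9 ± 3.04 in EV T3, 80.1 ± 0.314 in TRB vehicle and 269.6 ± 69.8 in TRB T3. TRB T3 replicate 2 stood apart from its group. The deviation of each library from the mean of its 2 group mates was set against the GC content of genes (12130 genes), with a Spearman rho of -0.886 for this library and of 0.858 and 0.873 for the other TRB T3 libraries, whose mates include it. The biological coefficient of variation was 0.329 with it and 0.131 without it, so each result is given over all 12 libraries and over the 11 others. In EV T3, replicates 2 and 3 had such rho values of -0.823 and 0.794, and EV vehicle replicate 2 had -0.659. Epithelial markers summed to 2028 to 5013 CPM over the libraries. Of 7 thyroid follicular markers, TSHR and FOXE1 were at 0 in every library and the sum was 1.08 to 10.9 CPM, from 8.14 to 10.9 in TRB vehicle and from 1.08 to 5.25 in TRB T3. In the same 2 groups, 7 fibroblast markers summed to 25.5 to 28.0 and 1.44 to 14.9 CPM, and 6 of these 7 had at most 15 counts in all. Endothelial markers summed to at most 0.317 CPM and 4 of the 5 immune markers had at most 15 counts in all. The immune sum was 0.407 to 0.689 CPM in TRB vehicle and 0.18 to 9.99 CPM in TRB T3. The 1 immune marker tested, CD14, had a log2 fold change of 4.04 under T3 in TRB cells (edgeR adjusted p 0.013), and 4.60 over 11 libraries. Both its lowest value of the series, 0.18 CPM, and its highest, 9.74 CPM, were in TRB T3 libraries. The rise was thus not in every library of that group, and the median of CD14 over the 12 libraries was 0.527 CPM. At that level it passed the filter only through the libraries where it was high. Its change is therefore not read as a result. The part of these markers in the results was not tested.

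In EV vehicle cells, per kilobase of exon, SHH was the highest of the 8 genes at 20.9 ± 0.605 CPM per kb (SD, n = 3). GLI2 followed with 6.05 ± 1.13, GLI1 with 4.77 ± 0.208, PTCH1 with 3.05 ± 0.165 and SUFU with 1.96 ± 0.155. GLI3 was at 0.234 ± 0.00683 CPM per kb. The ranges of neighbours in this order did not overlap. In TRB T3 the order of mean levels was SHH (13.6 CPM per kb), PTCH1 (3.02), GLI2 (2.54), SUFU (1.73), GLI1 (0.469) and GLI3 (0.391). There all neighbours below SHH overlapped, from PTCH1 to GLI3. Without TRB T3 replicate 2 the order was the same, and only PTCH1 and GLI2 overlapped. GLI1 (0.518 to 0.802 CPM per kb) then lay below SUFU (2.32 to 2.51) and just above GLI3 (0.315 to 0.513). By mean level per kilobase, GLI1 thus stood above PTCH1 and SUFU in EV vehicle and below both in TRB T3. Its range there overlapped that of SUFU only with replicate 2 included.

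The level of SMO could not be compared between groups. SMO, the signal transducer that Patched holds back, lies on chromosome 7 (129188872 to 129213545, plus strand; GRCh38, GENCODE 29). It had 1 count in all 12 libraries, in TRB vehicle replicate 2. HHIP, on chromosome 4 (144646021 to 144745271, plus strand), had 2 counts, both in TRB T3 replicate 2. A limit of 3 counts corresponds to 0.229 to 0.785 CPM per library, so any SMO or HHIP transcript below that level was not detectable at this depth.

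T3 in TRB cells was compared with vehicle in the same cells for the hormone response with added receptor. GLI1, GLI2 and SHH fell, GLI1 to 8.54% of its vehicle level, GLI2 to 37.3% and SHH to 59.7%. PTCH1, SUFU and GLI3 did not pass the test. Thus 3 of the 6 tested genes were lower and none higher, where 6.2% of all 14431 tested genes were lower and 14.7% changed in either direction (edgeR, adjusted p under 0.05). Over 11 libraries the 3 genes were also lower, beside 15.2% of 14825 genes lower, with 33.3% in either direction. Because the set was chosen with earlier results of these data known, such shares are context in every comparison and not a test of the set. The median log2 fold change of the 6 was -0.60, beside 0.01 for all tested genes. Over 11 libraries it was -0.37, beside -0.01. In bulk RNA, fewer cells with a transcript and less transcript per cell cannot be told apart.

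SHH encodes the secreted ligand Sonic hedgehog (chromosome 7, 155799986 to 155812273, minus strand). In TRB vehicle it was at 108.1, 125.1 and 110.5 CPM in replicates 1, 2 and 3. In TRB T3 it was at 69.7, 72.5 and 63.1 CPM. The TRB T3 libraries were the 3 lowest of the 12, and the groups did not overlap. The log2 fold change was -0.74 (SE 0.141, 95% interval -1.06 to -0.43, edgeR adjusted p 0.00512). Without TRB T3 replicate 2 it was -0.74 (SE 0.109, adjusted p 0.000212). With offsets for GC content in each of the 12 libraries the change shrank to -0.27 (adjusted p 0.471), and with such offsets without that library it was -0.86 (adjusted p 2.46e-07). SHH also missed the threshold when only its 2 groups were fitted (adjusted p 0.106) or when low counts were not filtered (adjusted p 0.0612).

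PTCH1 encodes the ligand's receptor, which restrains SMO in the absence of ligand (chromosome 9, 95442980 to 95517057, minus strand). It was at 57.2, 57.3 and 52.6 CPM in TRB vehicle and at 54.0, 42.1 and 54.1 CPM in TRB T3. The groups overlapped, and replicate 2 of TRB T3 was the lowest library of the series. The log2 fold change was -0.15 (95% interval -0.50 to 0.19, edgeR adjusted p 0.511). Over 11 libraries it was 0.0039 (95% interval -0.23 to 0.24, adjusted p 0.984), an interval of 0.851-fold to 1.18-fold. An antisense gene covers 4.29% of the exon bases of PTCH1, and whether reads were counted by strand is not given in the sources used here.

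SUFU encodes the inhibitor that binds GLI proteins (chromosome 10, 102503987 to 102633535, plus strand). It was at 17.5, 17.5 and 14.7 CPM in TRB vehicle and at 15.9, 2.52 and 17.2 CPM in TRB T3. Replicate 2 of TRB T3, with 14 counts, was the only library of the series under 12 CPM. Over 12 libraries the log2 fold change was -0.46 (95% interval -1.52 to 0.61, edgeR adjusted p 0.528). Without that library it was 0.05 (95% interval -0.27 to 0.37, adjusted p 0.84).

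GLI1, the activator that is also a pathway target, lies on chromosome 12 (57460135 to 57472262, plus strand). It was at 22.7, 23.8 and 26.0 CPM in TRB vehicle. In TRB T3 it was at 2.18, 0.360 and 3.37 CPM, from 29, 2 and 27 counts. The value of replicate 2 rests on fewer than 3 counts. The 3 TRB T3 libraries were the lowest of the 12 by a wide margin: the next library stood at 12.2 CPM. The log2 fold change was -3.55 (SE 0.450, 95% interval -4.54 to -2.56, edgeR adjusted p 0.000428), an 11.7-fold lower level. Only 29 of the 14431 tested genes had a more negative fitted change. Over 11 libraries the change was -3.12 (SE 0.186, adjusted p 8.08e-08), an 8.71-fold lower level. GLI1 stayed below the threshold for adjusted p in all 23 other settings that tested it, with log2 fold changes from -4.03 to -3.12. With offsets for GC content it was -3.26 with and without replicate 2.

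GLI2, the main activator downstream of SMO, lies on chromosome 2 (120735623 to 120992653, plus strand). It was at 47.4, 55.8 and 47.7 CPM in TRB vehicle and at 25.4, 8.63 and 21.9 CPM in TRB T3. The 3 TRB T3 libraries were again the lowest of the 12, with replicate 2 the lowest of them. The log2 fold change was -1.42 (SE 0.329, 95% interval -2.15 to -0.70, edgeR adjusted p 0.0147). Over 11 libraries it was -1.04 (SE 0.165, adjusted p 0.000379). The call was lost without TRB vehicle replicate 1, 2 or 3 (adjusted p 0.0542, 0.0682 and 0.0523) and when only its 2 groups were fitted (adjusted p 0.162).

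GLI3, the main repressor form of the family, lies on chromosome 7 (41960950 to 42237870, minus strand). It was at 2.64, 3.53 and 1.93 CPM in TRB vehicle and at 3.45, 3.78 and 5.62 CPM in TRB T3. The groups overlapped in 1 pair of libraries. Its log2 fold change was 0.66 (95% interval 0.03 to 1.28, edgeR adjusted p 0.147), and 0.75 over 11 libraries (adjusted p 0.0646). GLI3 thus did not pass, and its values lay on the other side of 0 from those of GLI1 and GLI2. It passed in 3 other fits: with offsets for GC content over 12 libraries (0.73, adjusted p 0.0491) and, without TRB T3 replicate 2, with the replicate number as a block (0.92, adjusted p 0.0225) and in a fit of these 2 groups alone (0.74, adjusted p 0.0425). With GC offsets and without that library it did not (0.64, adjusted p 0.0633).

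**Figure D1:**
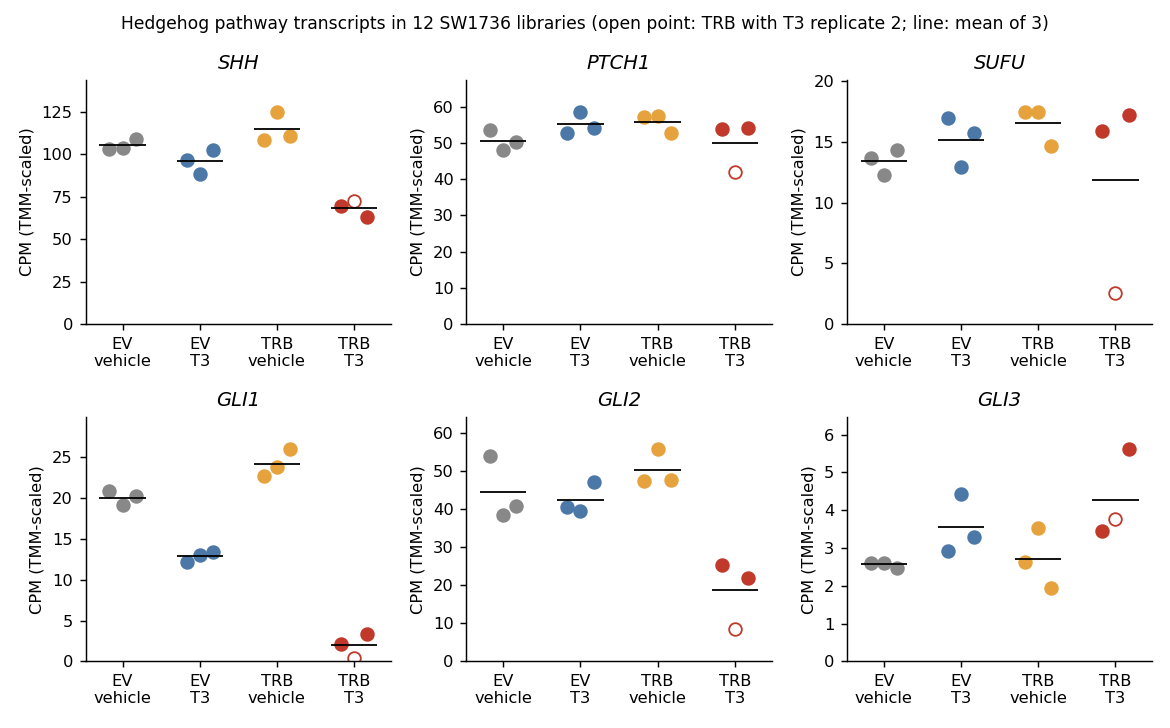
Levels of the 6 tested genes in TMM-scaled CPM (vertical axes start at 0) in the 4 groups; each point is 1 library, lines are means of 3, and the open point is TRB T3 replicate 2. SHH, GLI1 and GLI2 are lowest in all 3 TRB T3 libraries, while PTCH1, SUFU and GLI3 overlap between TRB vehicle and TRB T3.

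T3 in EV cells was compared with vehicle for the hormone response with the cells' own receptors. GLI1 was lower in every EV T3 library than in every EV vehicle library, but by far less than in TRB cells, and no gene of the 8 passed over 12 libraries. GLI1 was at 20.8, 19.1 and 20.2 CPM in EV vehicle and at 12.2, 13 and 13.4 CPM in EV T3. Its log2 fold change was -0.64 (95% interval -1.52 to 0.24, edgeR adjusted p 0.935). Over 11 libraries, with the smaller spread, it was -0.63 (SE 0.141, adjusted p 0.0216), and GLI1 was lower by the test. The library left out is in neither EV group, so the EV libraries in this fit are the same. GLI1 passed in 4 of the 22 other settings that tested it, this one included. All of them left out TRB T3 replicate 2 or used GC offsets. When only the 2 EV groups were fitted GLI1 did not pass, while 1.49% of all genes did. None of the 6 tested genes was called over 12 libraries, where 0.229% of all genes were, and none had an unadjusted p under 0.05. DESeq2 called 0 of the 6 as well, beside 1.19% of all genes. Shares of all genes at the unadjusted cut, or without overlap, were not counted. Over 11 libraries 1 of 6 was lower, beside 3.57% of all genes lower and 7.33% in either direction.

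No other gene of the set passed under T3 in EV cells in either fit. SHH was at 103.2, 103.8 and 108.7 CPM in EV vehicle and at 96.6, 88.4 and 102.3 CPM in EV T3. These ranges nearly touched, and the log2 fold change of -0.14 did not pass (edgeR adjusted p 0.935, and 0.361 over 11 libraries). GLI2 was at 53.9, 38.5 and 40.9 CPM in EV vehicle and at 40.6, 39.6 and 47.1 CPM in EV T3, which overlapped (log2 fold change -0.06, adjusted p 0.974). PTCH1 was at 53.4, 48.0 and 50.4 CPM in EV vehicle and at 52.6, 58.6 and 54.2 CPM in EV T3. SUFU was at 13.7, 12.3 and 14.3 CPM in EV vehicle and at 17, 12.9 and 15.7 CPM in EV T3. Both overlapped between the groups, and neither passed, with log2 fold changes of 0.13 and 0.18. GLI3 was at 2.61, 2.62 and 2.48 CPM in EV vehicle and at 2.93, 4.44 and 3.29 CPM in EV T3. These ranges did not overlap, but its log2 fold change of 0.49 did not pass (adjusted p 0.933, and 0.264 over 11 libraries).

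The interaction of vector and T3 tested whether the hormone response differed between TRB and EV cells. For GLI1 it did: the fall under T3 was greater in TRB cells, with a log2 difference of -2.91 (SE 0.588, edgeR adjusted p 0.0281), a 7.51-fold difference. GLI1 was the 1 member called of 6, beside 0.825% of all genes with a lower response and 2.59% in either direction. The call was lost when any 1 library other than TRB T3 replicates 2 and 3 was left out (adjusted p 0.0596 to 0.106), while the value stayed between -2.97 and -2.88. Without TRB T3 replicate 2 the difference was -2.49 (SE 0.235, adjusted p 3.21e-05). In that fit SHH (-0.60, adjusted p 0.0157) and GLI2 (-0.98, adjusted p 0.0104) also had a lower response in TRB cells. These are 3 of 6, beside 6.68% lower and 15.2% in either direction. Over 12 libraries SHH (-0.61, adjusted p 0.151) and GLI2 (-1.36, adjusted p 0.16) did not pass. The interaction was not called for PTCH1, SUFU or GLI3 in either fit. The 2 hormone contrasts share no libraries.

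**Figure D2:**
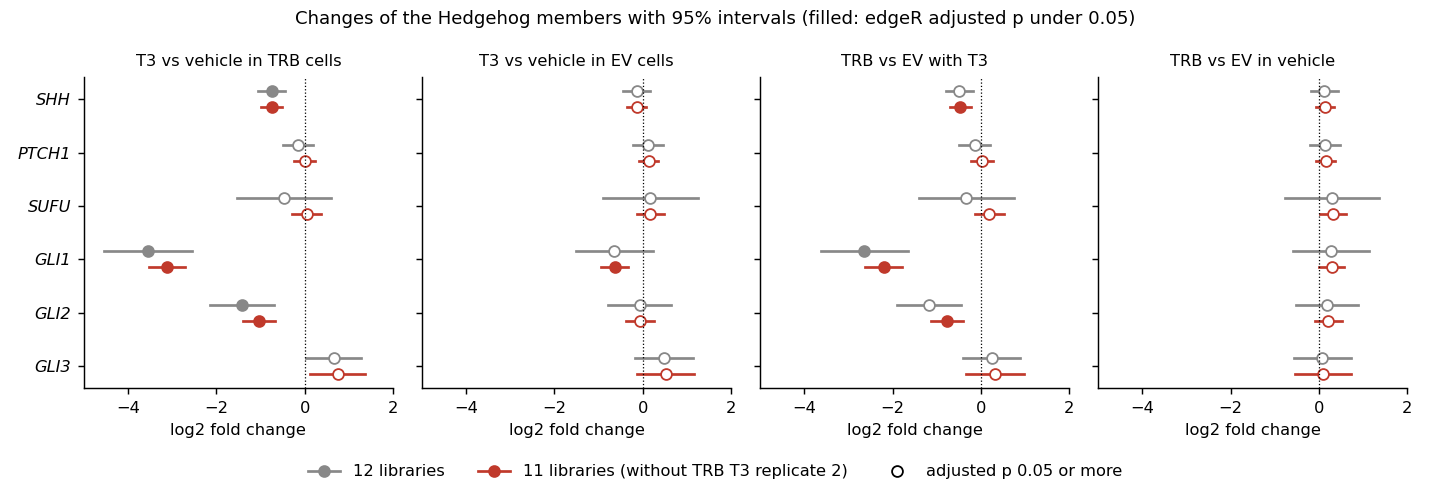
Log2 fold changes of the 6 tested genes in 4 comparisons, with 95% intervals from edgeR, over 12 libraries (grey) and over 11 without TRB T3 replicate 2 (red); filled points have an adjusted p under 0.05. GLI1 lies at -3.55 and -3.12 for T3 in TRB cells and at -0.64 and -0.63 in EV cells, and the intervals of SUFU narrow without replicate 2.

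With vehicle alone, TRB cells were set against EV cells to show the effect of the receptor without added hormone. No gene of the set differed by the test in either fit. GLI1 was 24.2 ± 1.71 CPM in TRB vehicle and 20.1 ± 0.873 CPM in EV vehicle (SD, n = 3). The TRB libraries were all above the EV libraries, and the log2 fold change was 0.27 (edgeR adjusted p 1.0), or 0.29 over 11 libraries (adjusted p 0.399). SUFU also did not overlap, at 16.6 ± 1.62 against 13.4 ± 1.06 CPM (log2 fold change 0.30, and 0.32 over 11 libraries with adjusted p 0.394). SHH, PTCH1, GLI2 and GLI3 overlapped between the groups, with log2 fold changes from 0.07 to 0.18. Of the 6 tested genes 0 were called, beside 0.0208% of all genes over 12 libraries and 0.0742% over 11. When only these 2 groups were fitted, 11.2% of 14008 genes were called, and none of the 6. The small shares thus depend on the spread shared with the T3 groups. DESeq2 called 0 of the 6, beside 0.0554% of all genes. With an unadjusted p under 0.05 in edgeR there were 0 of 6 over 12 libraries and 2 over 11. The shares of all genes at that unadjusted cut, or without overlap, were not counted. The values of GLI1 and SUFU are therefore not read as a difference.

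Under T3, TRB cells were set against EV cells to show the effect of the receptor with hormone. GLI1 was lower in TRB T3 than in EV T3, 1.97 ± 1.52 against 12.9 ± 0.621 CPM (SD, n = 3), with no overlap. This was a log2 fold change of -2.64 (SE 0.444, edgeR adjusted p 0.00561), and -2.20 over 11 libraries (adjusted p 7.06e-06). Fitted on these 2 groups only, it did not pass (adjusted p 0.212). SHH, at 68.4 ± 4.84 against 95.8 ± 6.95 CPM, did not overlap and did not pass over 12 libraries (-0.48, adjusted p 0.0694). GLI2, at 18.6 ± 8.85 against 42.4 ± 4.05 CPM, likewise (-1.17, adjusted p 0.0597). Both were lower over 11 libraries (SHH -0.46, adjusted p 0.00998; GLI2 -0.77, adjusted p 0.006). So 1 of 6 genes was lower beside 2.55% of all genes, with 6.68% in either direction, and over 11 libraries 3 of 6 beside 7.9%, with 19.7% in either direction. PTCH1, SUFU and GLI3 overlapped between these groups.

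TRB T3 was set against EV vehicle for receptor and hormone together. This comparison shares the TRB T3 libraries with the others, so its values are given beside them and not as further support. SHH (-0.62, edgeR adjusted p 0.0166) and GLI2 (-1.24, adjusted p 0.0355) were lower along with GLI1 (-3.28, adjusted p 0.000873), 3 of 6 beside 4.59% of all genes lower and 10.6% in either direction. Over 11 libraries SHH was at -0.60 (adjusted p 0.0011), GLI1 at -2.83 (adjusted p 2.56e-07) and GLI2 at -0.83 (adjusted p 0.00211). GLI3 was higher in that fit, at 0.84 (SE 0.301, adjusted p 0.0471), but not over 12 libraries (0.73, adjusted p 0.154). That made 3 of 6 lower beside 15.2% and 1 higher beside 18.5%, with 33.7% in either direction. GLI1 did not pass when only these 2 groups were fitted (adjusted p 0.0705). The SHH call was lost without TRB T3 replicate 3 and without EV vehicle replicate 1, 2 or 3. The GLI2 call was lost without any 1 library other than TRB T3 replicates 1 and 2.

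The wider pathway was covered by 67 further genes in 5 lists, of which 42 were tested over 12 libraries and 43 over 11. Under T3 in TRB cells, 5 were higher and 6 lower over 12 libraries, and 9 higher and 9 lower over 11. The corresponding shares of all genes were 8.54% higher and 6.2% lower over 12 libraries, and 18.1% and 15.2% over 11. Under T3 in EV cells none passed over 12 libraries, and 2 were higher and 4 lower over 11, beside 3.76% and 3.57% of all genes. No interaction passed over 12 libraries, and 3 were higher and 5 lower over 11, beside 8.55% and 6.68%.

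Among 8 genes listed for other ligands and ligand release, 4 were tested and 1, IHH, was lower under T3 in TRB cells (median of the 4 -0.16, beside 0.01 for all genes). The 4 include PORCN, which is known for Wnt ligands and not for Hedgehog ligands (log2 fold change 0.27). Over 11 libraries PORCN was higher (0.78, edgeR adjusted p 0.0405) and is 1 of the 9 higher genes of the wider lists. IHH encodes Indian hedgehog, a ligand of the same receptors as SHH. It was at 4.47, 3.36 and 3.11 CPM in TRB vehicle. In TRB T3 it was at 0.600 CPM in replicate 1, from 8 counts, and at 0 in the other two. This gave a log2 fold change of -3.64 (SE 0.638, edgeR adjusted p 0.00329), and -3.20 over 11 libraries (adjusted p 0.000455). In EV cells IHH was at 2.39 ± 0.578 CPM with vehicle and 2.0 ± 0.717 CPM with T3, which overlapped. The interaction was -3.36 over 12 libraries (adjusted p 0.0722) and -2.91 over 11 (adjusted p 0.0151). DHH, the remaining mammalian ligand, had 4 counts in all libraries and was not tested.

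Among the co-receptors, only CDON and GPC3 were tested. CDON, a cell surface protein that binds Hedgehog ligands together with PTCH1, was higher under T3. It was at 7.72, 10.7 and 11.3 CPM in TRB vehicle and at 46.1, 36.7 and 43.1 CPM in TRB T3. All 3 TRB T3 libraries lay above the other 9. Its log2 fold change was 2.08 (SE 0.218, edgeR adjusted p 0.000131), and 2.21 over 11 libraries (adjusted p 9.32e-07). In EV cells CDON was at 12.4 ± 2.31 CPM with vehicle and 22.9 ± 2.09 CPM with T3 without overlap, a log2 fold change of 0.88 over 12 libraries (adjusted p 0.202) and 0.87 over 11 (adjusted p 0.011). The interaction was 1.20 over 12 libraries (adjusted p 0.0664) and 1.34 over 11 (adjusted p 0.0031). BOC and LRP2 had 0 counts in all libraries and GAS1 had 15.

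Of 13 genes of the cilium and signal relay, 11 were tested and 1, GPR161, was lower under T3 in TRB cells (median -0.03). GPR161 is a ciliary receptor that raises cAMP and so restrains GLI activation. It was at 3.46, 3.71 and 3.02 CPM in TRB vehicle and at 1.65, 1.62 and 1.37 CPM in TRB T3, without overlap. Its log2 fold change was -1.12 (SE 0.218, edgeR adjusted p 0.00578), and -1.09 over 11 libraries (adjusted p 0.00349). In EV cells it was -0.97 in both fits (adjusted p 0.259 over 12 libraries, 0.0471 over 11). The interaction was near 0 (-0.15, adjusted p 0.86).

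All 13 kinases and ubiquitin ligases that process GLI proteins were tested, and 2, GSK3B and DYRK2, were higher under T3 in TRB cells (median 0.38). GSK3B phosphorylates GLI proteins before they are processed. It was at 155.7, 174.4 and 166.9 CPM in TRB vehicle and at 281.4, 469.2 and 281.2 CPM in TRB T3, with replicate 2 well above its mates. This gave a log2 fold change of 1.05 (SE 0.222, edgeR adjusted p 0.00921), and 0.81 over 11 libraries (adjusted p 0.000719). DYRK2, which marks GLI2 for degradation, was 119.6 ± 11.1 CPM in TRB vehicle and 196.3 ± 51.6 CPM in TRB T3 (log2 fold change 0.71, adjusted p 0.0376; 0.52 over 11 libraries, adjusted p 0.0101). Over 11 libraries the interaction passed for GSK3B (0.96, adjusted p 0.00561) and not for DYRK2 (0.41, adjusted p 0.158). In that fit 4 of the 13 were higher and 1 lower under T3 in TRB cells.

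Of 26 genes listed as GLI targets in other tissues, 12 were tested over 12 libraries, and 2 were higher and 4 lower under T3 in TRB cells (median -0.76). FOXL1, a forkhead factor, was at 5.69, 5.17 and 5.88 CPM in TRB vehicle and at 1.58, 0.540 and 1.12 CPM in TRB T3. Its log2 fold change was -2.26 (SE 0.288, edgeR adjusted p 0.000451), and in EV cells it was -0.87 over 11 libraries (adjusted p 0.0238). HSD11B2, the enzyme that inactivates cortisol, was at 11.3, 10.5 and 9.82 CPM in TRB vehicle and at 3.75, 0.540 and 4.0 CPM in TRB T3 (-1.86, adjusted p 0.0157). Both were lowest in replicate 2, and without it they were at -1.94 (adjusted p 3.31e-05) and -1.40 (adjusted p 4.07e-05). The targets did not move one way: BMP2, a ligand of the BMP family, and CCND1, which encodes cyclin D1, were higher. BMP2 was at 13.3 ± 1.66 CPM in TRB vehicle and 28.9 ± 7.15 CPM in TRB T3 (1.12, adjusted p 0.00558; 0.95 over 11 libraries). CCND1 was at 347.0 ± 23.6 and 591.1 ± 95.1 CPM (0.77, adjusted p 0.00604; 0.68 over 11 libraries). Over 11 libraries the interaction passed for FOXL1 (-1.08, adjusted p 0.0358), HSD11B2 (-1.47, adjusted p 0.00108) and CCND1 (0.76, adjusted p 0.00321), and not for BMP2 (0.60, adjusted p 0.0797). In that fit 3 of 13 targets were higher and 5 lower under T3 in TRB cells, with a median of -0.31. DIO3, the deiodinase that inactivates thyroid hormone and a GLI target in skin, was tested in that fit only. DIO3 is 1 of the 13 and not of the 12, so the counts and medians of the 2 fits cover unlike sets. It ranged from 0.0817 to 5.37 CPM with a median of 0.214, and it is named here after its values were seen. With so low a median it passed the filter only through the libraries where it was high, and its change is not read as a result.

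**Figure D3:**
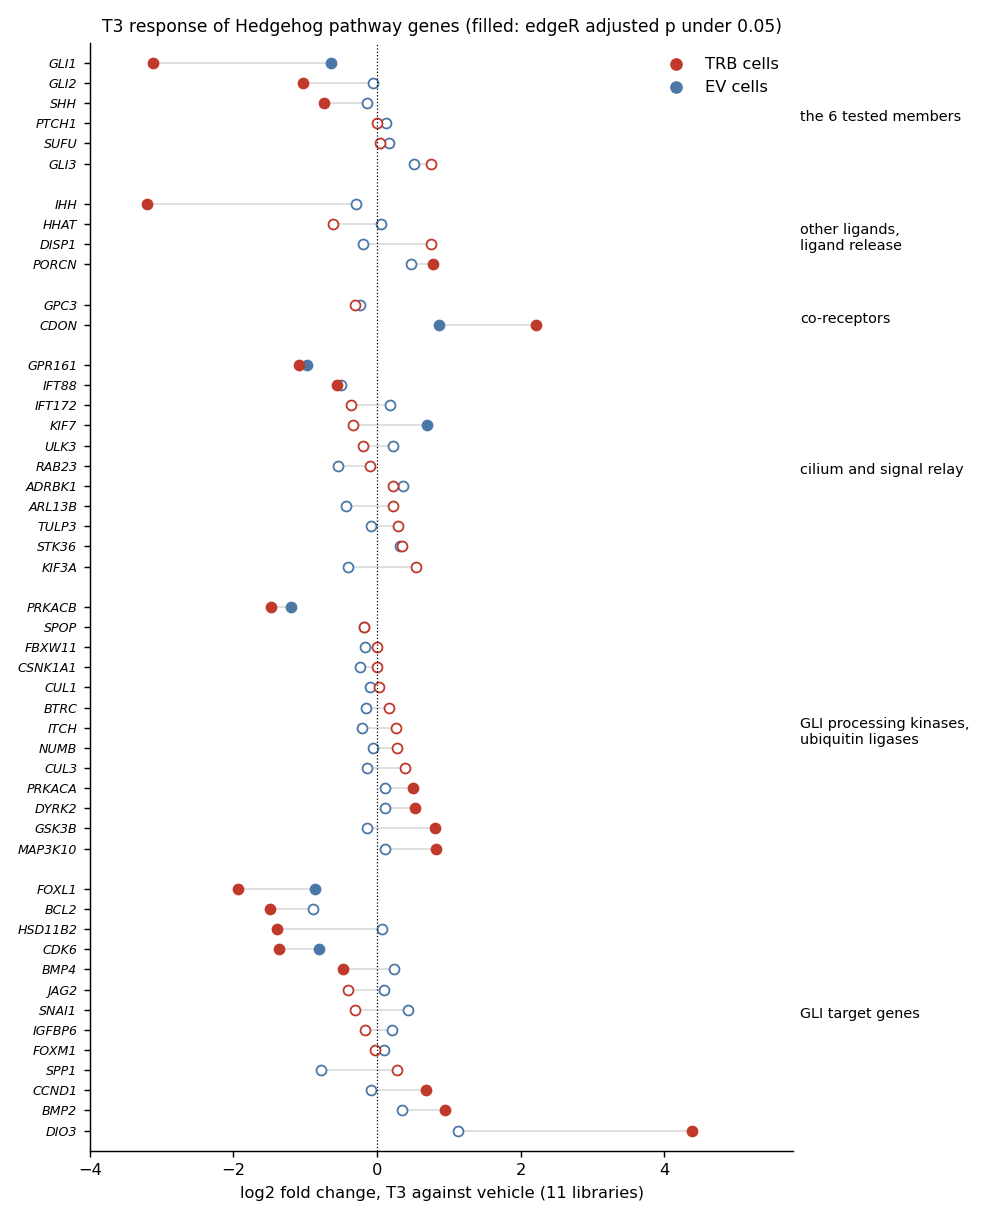
Log2 fold changes under T3 in TRB cells (red) and EV cells (blue) over 11 libraries for the tested genes of the set and of the 5 wider lists; filled points have an edgeR adjusted p under 0.05. GLI1 (-3.12) and IHH (-3.20) lie farthest to the left in TRB cells, CDON (2.21) lies to the right, and the GLI targets lie on both sides of 0; IHH and DIO3 rest on few counts in 1 of the compared groups.

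Genes whose levels most resembled GLI1 across the 11 libraries were sought among 10094 genes whose mean log2 CPM was 3 or more. The 5 with the highest Pearson correlation of log2 CPM were FLVCR2 (r = 0.995), HOXC4 (0.990), AKAP1 (0.989), AQP3 (0.986) and CTSE (0.985). These are descriptions over libraries that share 4 groups, and the genes were chosen for the likeness. FLVCR2, a membrane transporter, had mean levels of 21.0 CPM in EV vehicle, 13.7 in EV T3, 28.1 in TRB vehicle and 3.64 in TRB T3. GLI1 had means of 20.1, 12.9, 24.2 and 2.77 CPM in the same groups, TRB T3 replicate 2 being left out for all of these genes. AQP3, an aquaporin, had 19.1, 15.5, 23.6 and 3.99 CPM. AKAP1, a mitochondrial anchor of protein kinase A, was the most abundant of the 5, from 211.5 CPM in EV vehicle to 102.2 CPM in TRB T3. Within the Hedgehog set, GLI1 correlated with SHH (r = 0.942) and GLI2 (0.908) over the same 11 libraries. With PTCH1 r was -0.064, with SUFU -0.267 and with GLI3 -0.652, an inverse relation.

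**Figure D4:**
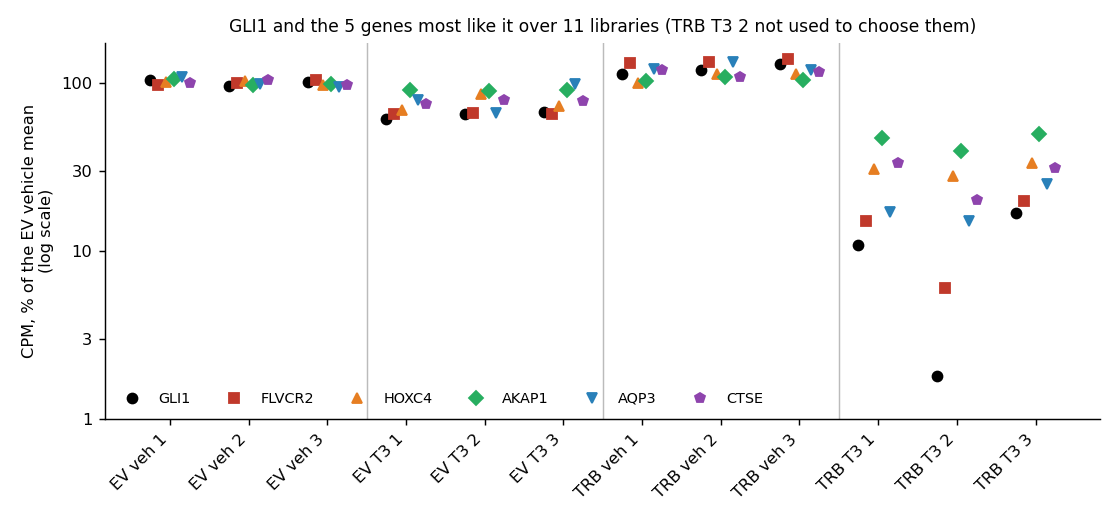
Levels of GLI1 and the 5 genes most like it in each of the 12 libraries, as a percentage of each gene's EV vehicle mean (log scale); TRB T3 replicate 2 was not used to choose them. All 6 genes are lowest in the TRB T3 libraries, and GLI1 falls furthest.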

How the data were processed

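RNA-seq counts per gene were deposited by the authors for 12 libraries, 1 file each. Per the submitters' processing notes, CASAVA 1.7, STAR 2.7, HTSeq 0.10, DESeq2 and the build hg38 were used. The annotation and the strand setting are not given in the sources used here, and a deposited table of normalized values was not used. Rows that name no gene were left out of library sizes. Reads not aligned uniquely were 19.0% (TRB T3 replicate 2) to 92.0% (EV T3 replicate 3) of a library's total. Reads outside genes were 2.14% (EV T3 replicate 3) to 24.4% (TRB T3 replicate 2). The share not aligned uniquely was 33.1% to 66.3% in EV vehicle and 69.6% to 92.0% in EV T3. Its part in the results was not tested. Counts were tested with edgeR 4.0.16 in R 4.3.3 (quasi-likelihood, 2-sided, TMM scaling, all 4 groups sharing 1 spread, no block), after filterByExpr with a minimum count of 10 and a total of 15. P-values were adjusted by Benjamini-Hochberg over all tested genes, at a threshold of 0.05. SE is the fold change over the root of F. The fit was tested on simulated data with 1 biological coefficient of variation for all genes, near the 0.131 of the 11 libraries. That is below the 0.329 of all 12, and no GC trend was simulated, so the larger spread was not covered.

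The 8 genes and all lists were chosen with earlier results of these data known. Named from each wider list were up to 4 genes that passed for T3 in TRB cells in both fits, by adjusted p. For likeness to GLI1, 5 genes were named by correlation. Exon lengths and GC content came from GENCODE 29, and promoters from RefSeq. ADRBK1 stood for GRK2. Alternatives were other scalings, filters and tools (DESeq2 1.42.0, limma 3.58.1), libraries left out, the replicate number as a block, and GC offsets from a spline with 5 degrees of freedom. The compared groups alone without TRB T3 replicate 2 were added after seeing the data.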

Additional observations from a re-analysis of the deposited data

Results flagged for a closer look

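The T3 response of GLI1 differed between TRB and EV cells by the test of the interaction, with a log2 difference of -2.91 over 12 libraries and -2.49 over the 11 without TRB T3 replicate 2. The 12-library call was lost when any 1 library other than TRB T3 replicates 2 and 3 was left out. In TRB cells all 3 T3 libraries lay below all 3 vehicle libraries, and the same held in EV cells. The share of all genes that separate in this way was not counted. In EV cells GLI1 did not pass over 12 libraries (edgeR adjusted p 0.935) and passed over 11 (0.0216). SHH (-0.60) and GLI2 (-0.98) had such a difference in edgeR over the 11 libraries and not over 12. No group had the 4 or more libraries needed for a test of single outlying libraries.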

How the results depend on the processing

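GLI1 was lower under T3 in TRB cells in every setting that tested it. Between TRB and EV with vehicle no gene of the set differed in any setting. There 0.00658% to 11.2% of all genes were called, the most when only the 2 groups were fitted. Elsewhere the number of members called moved. Shares of all tested genes called in the same fit stand in brackets. Fits of only the compared groups called 1 under T3 in TRB cells (4.52%) and 0 both in TRB against EV under T3 (0.241%) and in TRB T3 against EV vehicle (2.81%). Without TRB T3 replicate 2, they called 2 (8.85%) and 5 (48.9%) in the last 2 comparisons. Requiring 10 counts in every library left GLI1 untested, which gave 0 in the interaction (3.23%). It gave 1 in TRB T3 against EV vehicle (11.4%), where GLI2 also lost its call (-1.21, adjusted p 0.0557). DESeq2 gave 3 in TRB against EV under T3 (13.2%) and 2 in the interaction (7.08%), and scaling by library size gave 2 in the former (7.53%). GC offsets gave 1 under T3 in EV cells (4.45%). Without TRB T3 replicate 2 they gave 2 there (17.7%), 3 in TRB against EV under T3 (41.7%) and 3 in the interaction (34.4%). Leaving out each library in turn gave 2 to 3 under T3 in TRB cells (8.48% to 33.3%). Under T3 in EV cells it gave 0 to 1 (0.0674% to 7.33%). In TRB against EV under T3 it gave 1 to 3 (2.79% to 19.7%). TRB T3 against EV vehicle had 1 to 4 (5.9% to 33.7%) and the interaction 0 to 3 (0.918% to 15.2%). The highest share in each comparison was without TRB T3 replicate 2.

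Changes of sign were among values that did not pass over 12 libraries. PTCH1 under T3 in TRB cells was at 0.0027 when only the compared groups were fitted without TRB T3 replicate 2. In TRB T3 against EV vehicle it was at 0.070 with DESeq2 size factors, 0.081 with DESeq2, 0.046 with only the compared groups, 0.16 with these without replicate 2, 0.0043 with GC offsets and 0.073 with these without replicate 2. SUFU, with only the compared groups and without replicate 2, was at 0.044 under T3 in TRB cells and 0.12 in TRB against EV under T3. In TRB T3 against EV vehicle it was at 0.37 there and passed as higher (edgeR adjusted p 0.0389), in a fit that called 48.9% of all genes. With GC offsets SUFU was at -0.013 under T3 in EV cells, and without replicate 2 at -0.0066 there, 0.084 in TRB against EV under T3 and 0.078 in TRB T3 against EV vehicle. GC offsets also gave SHH 0.046 in TRB against EV under T3 and 0.028 in the interaction, and GLI2 -0.0064 in TRB against EV with vehicle. Leaving out each library in turn gave PTCH1 -0.20 to 0.0039 under T3 in TRB cells, -0.20 to 0.028 in TRB against EV under T3 and -0.035 to 0.16 in TRB T3 against EV vehicle. SUFU had -0.77 to 0.048, -0.66 to 0.19 and -0.44 to 0.37 in the same comparisons. GLI2 had -0.12 to 0.15 under T3 in EV cells. GLI3 had -0.13 to 0.30 in TRB against EV with vehicle, -0.0087 to 0.46 under T3 and -0.11 to 0.38 in the interaction. The cause of these turns was not tested.

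Same-numbered libraries correlated from -0.19 to 0.728 in their deviations over 18 pairs, 12 of them above 0.1. The numbers were not taken as pairs, because 6 were not above 0.1. As a hint from the data alone, 21 of 36 best matches, each among 3 libraries, had the same number, where equal chances would give 12. With the replicate number as a block over 12 libraries, no count of members called changed. Of all genes, 18 were called under T3 in EV cells in place of 33. GLI1 was at -3.61 under T3 in TRB cells (edgeR adjusted p 0.00102). The block without TRB T3 replicate 2 called 1 member under T3 in EV cells (13.3% of all genes), 3 in TRB against EV under T3 (21.7%) and 3 in the interaction (22.1%). It called 4 under T3 in TRB cells (35.2%), GLI3 being added (0.92, adjusted p 0.0225). In that fit PTCH1 was at 0.017, 0.042 and 0.17, and SUFU at 0.0061, 0.16 and 0.32, under T3 in TRB cells, in TRB against EV under T3 and in TRB T3 against EV vehicle. Scaling by library size moved the median of all genes by -0.146 under T3 in TRB cells and -0.16 in the interaction. With limma-voom it moved by -0.112 under T3 in TRB cells and -0.131 in TRB T3 against EV vehicle. For the interaction, only the compared groups means all groups, so it was not run again. Depth limits SMO, HHIP and GLI1 in TRB T3.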
